A study of Mus musculus with 11 samples.

Results

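The 10 genes described here encode secreted cytokines of the IL-12, IL-6 and IL-10 families, together with IL-15 and IL-16. They were Il12a, Il12b, Il23a, Ebi3, Il6, Il10, Il15, Il16, Osm and Lif, chosen by name out of 18193 genes measured. All 10 had at least 1 probe set, the group of short probes that measures a transcript, and a gene with several probe sets was read from the one whose mean over the 11 arrays was highest, among those with a single gene symbol. The cells were macrophages grown for 7 days from bone marrow of Rag1-/- C57BL/6 mice aged 7 weeks. All groups shared the Rag1 deletion, which leaves the mice without mature B and T cells. M0 macrophages had no added cytokine (5 arrays). M1 macrophages received IFN-g and, in the last 24 h, LPS, a bacterial cell wall component (3 arrays). M2a macrophages received IL-4 and IL-13 (3 arrays). All cells were sorted for F4/80, a surface protein of mouse macrophages. Total RNA was measured on the Mouse Genome 430 2.0 array of Affymetrix, and the values are the authors' log2 probe-set values. Whether numbered arrays of a group stand for separate mice or cultures is not stated in the labels, so p-values here refer to the spread among these arrays, and that spread may be technical.

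Cytokines of the IL-12 family are pairs of subunits. Il12a with Il12b makes IL-12, Il23a with Il12b makes IL-23, and Ebi3 pairs with the product of Il27 to make IL-27 or with that of Il12a to make IL-35. Macrophages release IL-12 after microbial and interferon signals, and it directs T and NK cells towards interferon-gamma production. IL-6, oncostatin M and leukemia inhibitory factor signal through a common receptor chain encoded by Il6st, whereas IL-10 restrains the inflammatory output of macrophages. IL-15 supports NK cells and memory T cells and is handed to them bound to the receptor chain encoded by Il15ra, and IL-16 is a chemoattractant for cells that carry CD4.

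Adgre1, which encodes F4/80, lay between 10.78 and 12.49 on all arrays. The mean of 8 macrophage markers was 10.63 to 11.37 in M0, 11.86 to 11.87 in M1 and 9.99 to 10.33 in M2a. Of these 8, 4 rose and 1 fell in M1 against M0, and 1 rose and 5 fell in M2a. Markers of granulocytes were high in M0. The mean of 11 measured neutrophil-lineage genes, among them the myeloperoxidase gene Mpo, was 11.42 to 12.88 in M0, 7.26 to 7.43 in M1 and 5.38 to 5.47 in M2a. The mean of 10 mast cell, basophil and eosinophil genes was 6.75 to 8.62 in M0, 4.07 to 4.15 in M1 and 4.40 to 4.52 in M2a. Both lists were highest in M0 array 1. Of the 11 neutrophil-lineage genes, 10 fell and none rose in M1 against M0, and 11 fell in M2a against M0. All 10 mast cell, basophil and eosinophil genes fell in M1, and 9 fell in M2a. The M0 values of any cytokine gene that these cells also express may include their RNA. The part of these cells in the results below was not tested, and fewer cells of a type and less RNA per cell cannot be told apart. Of 7 measured dendritic cell genes, 1 fell and none rose in M1 against M0, and 2 rose and none fell in M2a. Of 12 genes of stroma and endothelium, 2 rose and 3 fell in M1, and 1 rose and 7 fell in M2a. Of 7 T and NK cell genes, 1 rose and 1 fell in each of these comparisons, and of 4 B cell genes, 1 rose and 2 fell in each. In M0, the average of arrays 1, 2 and 3 was the same as that of arrays 4 and 5 to within 8.3e-05 for all 45101 probe sets. The M0 arrays therefore do not amount to 5 independent measurements, and no source used here gives the reason. Fits with M0 arrays 1 to 3 only, or with arrays 4 and 5 only, must return the same differences from M0. Only the spread and the number of arrays change in them. For actin, the 5' control probe set minus the 3' one, a measure of RNA integrity and labelling, ran from -1.27 to 0.05 in M0, from 0.13 to 0.18 in M1 and from -0.63 to -0.53 in M2a. The hybridization controls, spiked in at the same amount by design, averaged 10.97 ± 0.52 (SD, n = 5) in M0, 9.48 ± 0.11 (SD, n = 3) in M1 and 9.67 ± 0.10 (SD, n = 3) in M2a. The groups did not overlap in these controls (10.44 to 11.56, 9.35 to 9.56 and 9.59 to 9.78). In the actin measure M1 lay apart from both other groups. The same measure for Gapdh ran from -1.22 to 0.48 in M0, from 0.55 to 0.61 in M1 and from -0.35 to -0.27 in M2a. Where such a control enters a fit as a covariate, its effect and that of the group cannot be cleanly told apart. A call lost or a sign turned there does not decide a difference.

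The comparisons with M0 ask where each treated state differs from M0, and the third asks where the treated states differ. M1 received LPS beside IFN-g. M0 also differed from both treated states in granulocyte markers and hybridization controls. Treatment, cell content and array handling therefore cannot be told apart in the comparisons with M0. M1 and M2a also did not overlap in the hybridization controls, the actin measure or the neutrophil-lineage mean. The same limit therefore holds for M1 against M2a. In M1 the genes of IL-6, IL-10 and both IL-12 subunits rose, while those of IL-16, IL-15 and oncostatin M fell. In M2a no gene of the group rose, and Ebi3 and Il16 had the largest falls. Against M0, 6 of the 10 genes rose and 3 fell in M1 in the limma fit at an adjusted p under 0.05. Over all 18193 genes 39.7% were called, 22.1% as higher and 17.6% as lower. In M2a none of the 10 rose and 6 fell, beside 31.9% of all genes called, 18.6% higher and 13.3% lower. In M1 against M2a, 5 of the 10 were higher and none was lower, beside 29.4% of all genes called, 13.7% higher and 15.6% lower. The median difference of the 10 genes was 0.42 in M1 against M0, -0.57 in M2a against M0 and 0.78 in M1 against M2a. The medians over all genes were 0.06, 0.07 and -0.02. Arrays of the groups did not overlap for 5 genes that were higher and 3 that were lower in M1 than in M0. The same held for 40.1% of all genes, 22.7% higher and 17.4% lower. In M2a against M0 it held for none that were higher and 5 that were lower, beside 35.1% of all genes, 21.3% higher and 13.9% lower. In M1 against M2a it held for 7 higher and 2 lower, beside 64.6% of all genes, 30.7% higher and 33.9% lower. The first pair of comparisons shares the M0 arrays. The 2 treated groups varied less than M0. With only those 2 groups in the fit, 9 of the 10 genes were called in M1 against M2a, 7 higher and 2 lower, and 10357 genes were called in place of 5341.

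**Figure D1:**
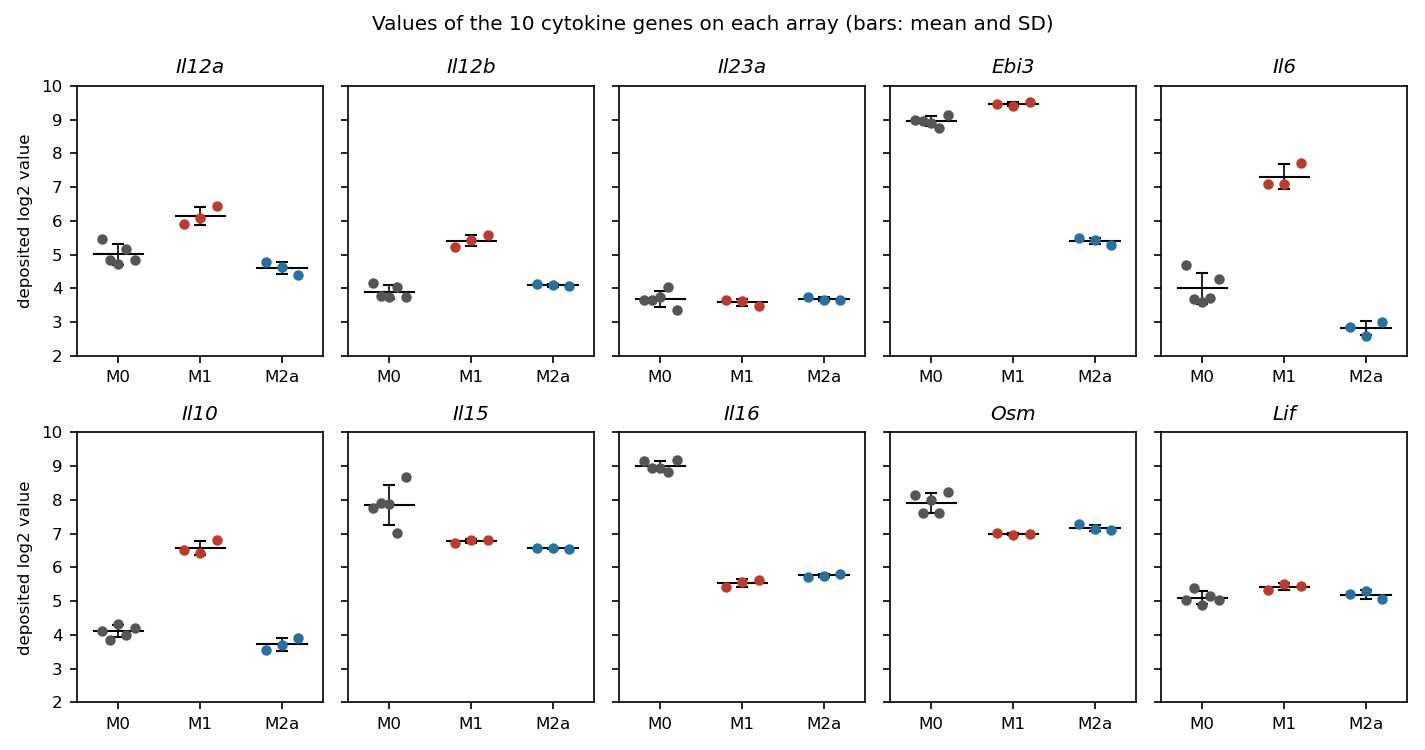
Deposited log2 values of the 10 genes on each of the 11 arrays (vertical axis), by group (horizontal axis); points are arrays, long bars the group means and whiskers the SD. Il6 separates all 3 groups, Ebi3 is low only in M2a (5.30 to 5.49), and Il16 is high only in M0 (8.83 to 9.19).

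Il12a, the subunit particular to IL-12 and IL-35, was highest in M1. Its log2 values were 5.47, 4.83, 4.72, 5.17 and 4.85 in M0, 5.92, 6.10 and 6.45 in M1, and 4.77, 4.63 and 4.41 in M2a. All M1 arrays lay above all others, and the M2a arrays overlapped M0. Il12a rose by 1.14 ± 0.18 (SE) in M1 against M0, a 2.21-fold difference (limma adjusted p = 0.00039). The difference of M2a from M0 was -0.41, with a 95% interval of -0.80 to -0.01, and did not pass after adjustment (adjusted p = 0.11). M1 exceeded M2a by 1.55 ± 0.20 (SE; limma adjusted p = 0.00011). With the hybridization controls as a covariate the rise in M1 was 1.98.

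Il12b, the subunit common to IL-12 and IL-23, moved with Il12a in M1. It stood at 4.16, 3.78, 3.74, 4.04 and 3.74 in M0, at 5.24, 5.43 and 5.57 in M1, and at 4.14, 4.09 and 4.06 in M2a. The M1 arrays were again apart from all others, by more than 1 log2 unit from the highest M0 array. Il12b rose by 1.52 ± 0.12 (SE) in M1 against M0 (limma adjusted p = 1.7e-06), which is 2.87-fold. A second probe set of Il12b gave a rise of 1.46 ± 0.14 (SE; limma adjusted p = 7.8e-06 over 34945 probe sets). M2a differed from M0 by 0.21 (95% interval -0.06 to 0.47, adjusted p = 0.22) on the first probe set and by -0.17 (adjusted p = 0.36) on the second. With the hybridization controls as a covariate the first of these was 0.69 and passed (limma adjusted p = 0.0040).

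Il23a, which IL-23 needs beside Il12b, showed no difference that passed the test. Its values were 3.35 to 4.03 in M0 with a median array at 3.67, 3.66, 3.62 and 3.47 in M1, and 3.75, 3.65 and 3.67 in M2a. The 3 groups overlapped, and the M0 arrays spanned more than the M1 and M2a arrays together. The difference was -0.11 in M1 against M0 (95% interval -0.39 to 0.18, limma adjusted p = 0.54) and 0.00 in M2a against M0 (95% interval -0.29 to 0.29). The table gives no detection call, so whether this probe set carried signal above background is unknown. The sign in M1 turned with quantile normalization (0.04) and with either control-probe covariate (0.34 and 0.28), and none of these values passed.

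Ebi3, the partner subunit of IL-27 and IL-35, had the largest fall of the group in M2a. It was at 9.0, 8.96, 8.89, 8.75 and 9.15 in M0 and at 9.47, 9.42 and 9.53 in M1, but at 5.49, 5.44 and 5.30 in M2a. No array of any group overlapped another group. Ebi3 fell by 3.53 on the log2 scale in M2a, an 11.6-fold difference, with an SE of 0.10 (limma adjusted p = 9.4e-10). It rose by 0.52 ± 0.10 (SE) in M1 against M0, or 1.44-fold (limma adjusted p = 0.0015). That rise was 0.31 after quantile normalization (adjusted p = 0.018), 0.30 with the actin covariate (adjusted p = 0.040) and 0.32 with the hybridization covariate, where the call was lost (adjusted p = 0.18). M1 exceeded M2a by 4.06 ± 0.11 (SE), or 16.7-fold (limma adjusted p = 2.9e-10).

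Il6, a driver of the acute-phase response, had the largest rise in M1 and the widest span across states. Its values were 4.70, 3.70, 3.60, 3.73 and 4.27 in M0, 7.10, 7.11 and 7.73 in M1, and 2.86, 2.60 and 3.01 in M2a. The 3 groups did not overlap in these values, and M0 lay between the treated states. The means of M0 (4.00) and M2a (2.82) were below the median gene level of those groups (5.96 in each). Without a detection call, whether the M0 and M2a values lie above background is unknown. Il6 rose by 3.31 ± 0.25 (SE) in M1 against M0, 9.92-fold (limma adjusted p = 1.2e-06). It fell by 1.18 on the log2 scale in M2a against M0, with an SE of 0.25 (limma adjusted p = 0.0038). The M2a call was lost with the hybridization controls as a covariate (-0.77, adjusted p = 0.19). M1 exceeded M2a by 4.49 ± 0.28 (SE), or 22.4-fold (limma adjusted p = 2.3e-07). Within M0, Il6 was highest on array 1, the array with the highest granulocyte marker means. Il12a and Il12b were also highest on that array within M0, whereas Ebi3, Il15, Il16 and Osm were highest on M0 array 5, the array with the highest macrophage marker mean in M0. The latter genes were all lowest on M0 array 4, and arrays 4 and 5 are tied through their mean as described above. Some gaps were small: Il16 was at 9.19 on array 5 and 9.15 on array 1. Whether these orders follow the cell content was not tested.

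Osm encodes oncostatin M, a relative of IL-6 made by activated myeloid cells. In M0 it was at 8.15, 7.60, 7.99, 7.60 and 8.23, against 7.03, 6.97 and 6.98 in M1 and 7.28, 7.15 and 7.10 in M2a. Every M0 array was above every treated array. Osm fell by 0.92 on the log2 scale in M1 (SE 0.15, limma adjusted p = 0.00051) and fell by 0.74 in M2a (SE 0.15, limma adjusted p = 0.0030). M1 and M2a differed by -0.18, with a 95% interval of -0.55 to 0.19 (adjusted p = 0.46). That difference passed with only the 2 groups in the fit (adjusted p = 0.045) and with the actin covariate (-0.52, adjusted p = 0.038). The falls of Osm moved with the lower granulocyte marker means of both treated states given above, and the part of those cells in them was not tested.

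Lif encodes leukemia inhibitory factor, another ligand of the IL-6 family. Its values were 5.05, 5.39, 4.88, 5.16 and 5.05 in M0, 5.32, 5.52 and 5.45 in M1, and 5.21, 5.31 and 5.06 in M2a. M0 overlapped both treated groups, while the M1 arrays lay above the M2a arrays by a narrow margin. The difference of M1 from M0 was 0.32 ± 0.12 (SE), or 1.25-fold, and passed narrowly (limma adjusted p = 0.048). The call was lost when any single array other than M0 array 2 was left out (adjusted p = 0.053 to 0.17) and with the mean of both Lif probe sets (0.20, adjusted p = 0.10). It was lost in 16 of 24 alternatives. The second probe set gave 0.07 ± 0.11 (SE; adjusted p = 0.65). M2a differed from M0 by 0.08 (95% interval -0.18 to 0.34, adjusted p = 0.63). M1 differed from M2a by 0.24 (95% interval -0.05 to 0.53, limma adjusted p = 0.21), which passed with only the 2 groups in the fit (adjusted p = 0.041) and with array weights per group (adjusted p = 0.022).

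Il10, the anti-inflammatory member of the group, rose in M1 and not in M2a. It was at 4.13, 3.86, 4.33, 4.01 and 4.20 in M0, at 6.51, 6.43 and 6.82 in M1, and at 3.54, 3.71 and 3.91 in M2a. The lowest M1 array was more than 2 log2 units above the highest M0 array, while M2a and M0 overlapped. Il10 rose by 2.48 ± 0.13 (SE) in M1 against M0, 5.58-fold (limma adjusted p = 8.1e-08), and M1 exceeded M2a by 2.87 ± 0.15 (SE; limma adjusted p = 5.3e-08). In M2a against M0 it fell by 0.39 on the log2 scale (SE 0.13), just under the threshold (limma adjusted p = 0.047). That call was lost in 14 of 24 alternatives. Single arrays decided it: it was lost without M0 array 1, 3 or 5 (adjusted p = 0.069, 0.093 and 0.065), without M1 array 1 or 2 (0.063 and 0.057) and without M2a array 1 or 2 (0.20 and 0.12).

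**Figure D2:**
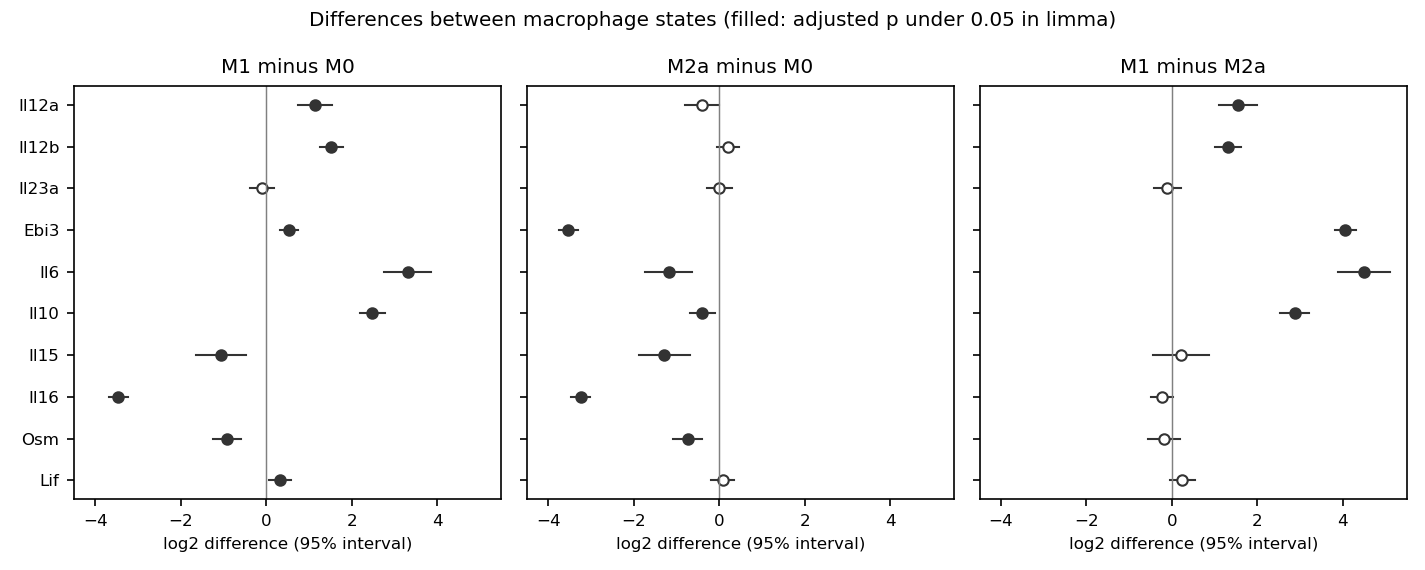
Log2 differences of the 10 genes (points) with 95% intervals (lines) in M1 against M0, M2a against M0 and M1 against M2a; filled points have an adjusted p under 0.05 in limma. Il6, Il10, Il12a, Il12b and Ebi3 are filled to the right of 0 in the M1 against M2a panel, while Il15, Il16 and Osm are filled to the left of 0 in both comparisons with M0.

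Il15 was lower in both treated states than in M0. Its values were 7.76, 7.92, 7.88, 7.01 and 8.69 in M0, 6.73, 6.82 and 6.82 in M1, and 6.59, 6.57 and 6.56 in M2a. The M0 arrays spanned 1.68 log2 units, the widest range of the 10 genes in that group, and still lay above all treated arrays. Il15 fell by 1.06 on the log2 scale in M1 (SE 0.27, limma adjusted p = 0.0083) and fell by 1.28 in M2a (SE 0.27, limma adjusted p = 0.0036). M0 arrays 4 and 5 held the lowest and the highest value, and with only those in M0 neither call held (adjusted p = 0.088 and 0.058). The differences themselves could not change there, as those arrays have the mean of all M0 arrays. With the hybridization covariate the differences were -2.30 and -2.36, and with the actin covariate the difference in M1 was -2.02. M1 differed from M2a by 0.21 (95% interval -0.44 to 0.87, adjusted p = 0.64), which became -0.70 with the actin covariate (limma adjusted p = 0.00048). With only the 2 groups in the fit the difference of 0.21 passed (adjusted p = 0.014).

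Il16, whose product is cut from a larger precursor by caspase-3, had the largest fall of the group in M1. It was at 9.15, 8.94, 8.94, 8.83 and 9.19 in M0, at 5.42, 5.56 and 5.64 in M1, and at 5.73, 5.76 and 5.82 in M2a. The treated arrays lay at least 3 log2 units below every M0 array. Il16 fell by 3.47 on the log2 scale in M1, 11.1-fold (SE 0.10, limma adjusted p = 6.2e-10), and fell by 3.24 in M2a, 9.43-fold (SE 0.10, limma adjusted p = 2.9e-09). M1 differed from M2a by -0.23 (95% interval -0.48 to 0.02, adjusted p = 0.16), with arrays that did not overlap. That difference passed with array weights per group (adjusted p = 0.014), with only the 2 groups in the fit (adjusted p = 0.027) and with the actin covariate (-0.42, adjusted p = 0.021). The falls of Il15 and Il16, like those of Osm, accompanied the lower granulocyte marker means of M1 and M2a, and the part of those cells was not tested.

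The 4 probe sets of Il16 disagreed. The second by mean level fell by 2.33 on the log2 scale in M1 (SE 0.17, limma adjusted p = 1.2e-06 over all named probe sets) and fell by 1.76 in M2a (adjusted p = 2e-05). The third was at 5.14 to 5.60 in M0 and differed by -0.10 in M1 (adjusted p = 0.53) and by 0.26 in M2a (adjusted p = 0.11). The fourth, of a type that can bind several transcripts, rose by 0.71 ± 0.13 (SE) in M1 (limma adjusted p = 0.00093) and differed by 0.07 in M2a (adjusted p = 0.69). In M1 against M2a the second differed by -0.57 (limma adjusted p = 0.043) and the third by -0.36 (limma adjusted p = 0.056). The fourth went the other way there, by 0.64 (limma adjusted p = 0.0051). Against M0, the mean of all 4 fell by 1.30 in M1 and fell by 1.16 in M2a. The fall of Il16 was therefore carried by 2 of its 4 probe sets.

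**Figure D3:**
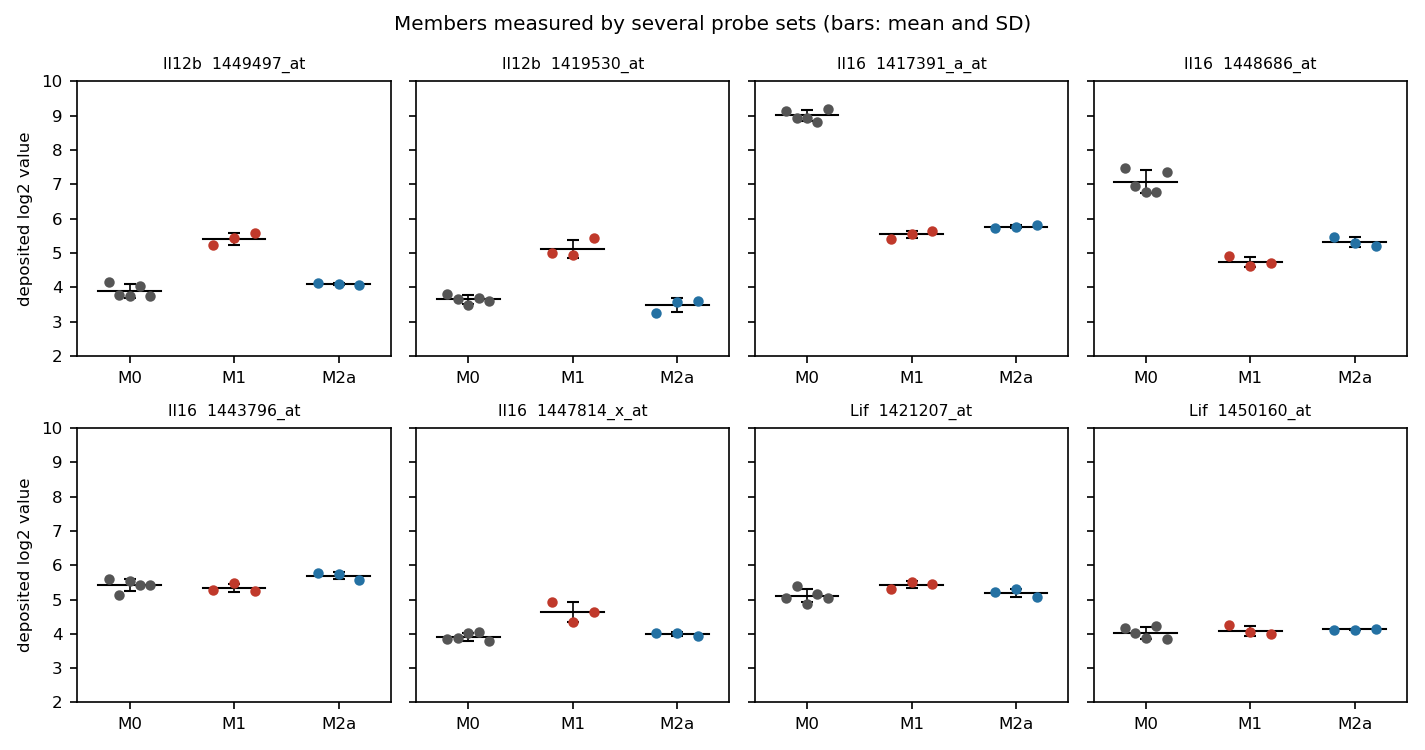
Deposited log2 values (vertical axis) on each array for every probe set of Il12b, Il16 and Lif, by group; bars are means and whiskers the SD. Both Il12b probe sets are higher in M1, while only 2 of the 4 Il16 probe sets are high in M0.

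RefSeq start sites on mouse genome build GRCm38.p6 were at hand for 6 of the 10 genes. The 250 bases before a start site are shown for Il6 and Il12b, which rose in M1, for Ebi3, which fell in M2a, and for 1 of 3 start sites of Il16, which fell in both. They lie at chr5:30012864-30013113, chr11:44399813-44400062, chr17:55952373-55952622 and chr7:83655496-83655745. The first 3 are on the plus strand and that of Il16 is on the minus strand. Capitals mark matches on either strand to a loose form of the NF-kB site, GGG and CC with 5 bases between them, and to TTNNGNAA, a loose form of the C/EBP site.
Il6: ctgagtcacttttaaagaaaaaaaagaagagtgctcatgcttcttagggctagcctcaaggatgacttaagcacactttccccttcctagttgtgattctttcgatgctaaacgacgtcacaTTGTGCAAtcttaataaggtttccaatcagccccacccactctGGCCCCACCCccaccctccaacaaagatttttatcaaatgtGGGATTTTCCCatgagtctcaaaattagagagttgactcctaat
Il12b: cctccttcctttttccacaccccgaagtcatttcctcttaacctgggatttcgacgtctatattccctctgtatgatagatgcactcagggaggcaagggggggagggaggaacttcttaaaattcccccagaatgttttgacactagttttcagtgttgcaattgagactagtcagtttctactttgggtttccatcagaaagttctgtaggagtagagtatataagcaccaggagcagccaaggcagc
Ebi3: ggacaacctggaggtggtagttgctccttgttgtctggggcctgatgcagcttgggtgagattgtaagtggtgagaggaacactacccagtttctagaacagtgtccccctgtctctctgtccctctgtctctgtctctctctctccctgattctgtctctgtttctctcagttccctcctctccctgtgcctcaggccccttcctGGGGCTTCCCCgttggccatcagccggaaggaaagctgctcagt
Il16: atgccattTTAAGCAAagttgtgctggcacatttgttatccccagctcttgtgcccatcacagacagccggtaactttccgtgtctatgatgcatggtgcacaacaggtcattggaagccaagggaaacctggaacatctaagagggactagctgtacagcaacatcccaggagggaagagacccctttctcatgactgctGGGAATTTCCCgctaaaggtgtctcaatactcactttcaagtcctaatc

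Il6 held GGGATTTTCC from base 44 to base 35 before its start, and TTGTGCAA from base 128 to base 121. Ebi3 held GGGGCTTCCC from base 44 to base 35. The Il16 start site shown held GGGAATTTCC from base 49 to base 40. Which start sites of Il16 were in use in these cells was not tested. No letters of Il12b matched either motif in this window. The NF-kB form is loose: it was found before 45.8% of 32851 start sites, and the C/EBP form before 36.8%. Among other motifs searched on both strands, AP-1 (TGANTCA, 6.75% of start sites) occurred once before Il6, once before Lif and once before another Il16 start site. The STAT6 form, TTC and GAA with 4 bases between them (5.85%), occurred before both Il12a start sites. None of the members' windows matched the IRF element, GAAA repeated after 2 bases (2.98%), TGACGTCA (1.55%) or TATAAA (12.4%). These matches are descriptions of letters and not measured binding.

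Receptors and signalling genes of these cytokines were taken from 7 lists with 57 measured of 68 genes. In M1 against M0, 24 of the 57 rose and 7 fell, and in M2a against M0, 13 rose and 11 fell. Their median differences were 0.23 and 0.01. The shares called, higher and lower, over all genes were given above.

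In M1 against M0, 1 of 3 measured genes of the IL-12 family partner and receptor list rose and none fell. Il27, the IL-27 partner of Ebi3, and Il23r were on that list but not among the measured genes. Of 5 measured IL-15 and IL-16 receptor genes, 1 rose and 1 fell in M1 against M0. Il12rb1, the receptor chain common to IL-12 and IL-23, averaged 4.54 ± 0.09 in the M0 arrays (SD, n = 5) and 7.99 ± 0.25 in the M1 arrays (SD, n = 3), a difference of 3.45 ± 0.12 (SE; limma adjusted p = 2.6e-09). Il15ra, which presents IL-15, went from 5.74 ± 0.16 (SD, n = 5) to 9.05 ± 0.03 (SD, n = 3), a difference of 3.31 ± 0.10 (SE; limma adjusted p = 1e-09). So in M1 the gene of this receptor was higher than in M0 while that of its ligand, Il15, was lower. Neither receptor gene passed in M2a. Il12rb2, the other IL-12 receptor chain, and Il2rb, a signalling chain of the IL-15 receptor, passed in neither comparison with M0 (0.14, adjusted p = 0.24, and 0.05, adjusted p = 0.79, in M1 by limma). Il27ra, which binds IL-27, rose by 0.57 ± 0.15 (SE) in M2a (limma adjusted p = 0.013), a call lost without M2a array 1 (0.46, adjusted p = 0.074) or 2 (0.51, adjusted p = 0.064) and with M0 arrays 4 and 5 only (adjusted p = 0.080).

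In M2a the genes of both IL-6 receptor chains changed in opposite directions. Il6ra, the chain that binds IL-6, was at 8.50 ± 0.38 (SD, n = 5) in M0, at 5.77 ± 0.24 (SD, n = 3) in M1 and at 5.84 ± 0.37 (SD, n = 3) in M2a. It fell by 2.73 on the log2 scale in M1 (SE 0.22, limma adjusted p = 2.2e-06) and fell by 2.66 in M2a (SE 0.22, limma adjusted p = 4.9e-06). With the mean of its probe sets the falls were -1.57 and -1.43. Il6st, the signalling chain of the whole family, was at 7.26 ± 0.53 (SD, n = 5) in M0, 6.66 ± 0.12 (SD, n = 3) in M1 and 9.27 ± 0.06 (SD, n = 3) in M2a. It rose by 2.02 ± 0.24 (SE) in M2a (limma adjusted p = 7.6e-05), by 1.31 with the mean of its probe sets and by 0.78 with the hybridization covariate. Its difference in M1, -0.60, did not pass (adjusted p = 0.072) but did in 9 of 25 alternatives. It was -2.02 with the hybridization covariate (limma adjusted p = 3.3e-05) and -1.28 with the actin covariate (limma adjusted p = 0.0018). It also passed without M0 array 1 (-0.73, adjusted p = 0.026) or 4 (-0.74, adjusted p = 0.015), with M0 arrays 1 to 3 only (adjusted p = 0.030), with the mean of its probe sets (-0.37, adjusted p = 0.046), with quantile normalization (-0.69, adjusted p = 0.0071), with array weights (adjusted p = 0.017) and with the replicate block (adjusted p = 0.024). Osmr and Lifr, the partner chains for oncostatin M and leukemia inhibitory factor, passed in neither comparison with M0. Of the other ligands, Clcf1, a cytokine of the IL-6 family, rose by 1.81 ± 0.25 (SE) in M1 (limma adjusted p = 0.00014), a call lost with the hybridization covariate (1.32, adjusted p = 0.054). Its difference of 0.90 in M2a (limma adjusted p = 0.016) lost its call without M2a array 1 (0.86, adjusted p = 0.062) or 2 (0.87, adjusted p = 0.061), and was 0.47 with the hybridization covariate (adjusted p = 0.40). Il11 fell by 0.45 in M1 (limma adjusted p = 0.014), a call lost without M1 array 3 (-0.39, adjusted p = 0.069), with M0 arrays 4 and 5 only (adjusted p = 0.075) and with the actin covariate (-0.18, adjusted p = 0.34), and with its sign turned under the hybridization covariate (0.07).

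For IL-10, the ligand-binding chain Il10ra was at 6.89 ± 0.59 (SD, n = 5) in M0 and 7.87 ± 0.07 (SD, n = 3) in M1. The difference of 0.98 ± 0.27 (SE) passed (limma adjusted p = 0.014), but not without M1 array 3 (0.94, adjusted p = 0.055) or with the actin covariate (0.53, adjusted p = 0.29). It was 0.38 with the mean of its probe sets and -0.51 with the hybridization covariate. Il10rb, the second IL-10 receptor chain, read 10.74, 10.73 and 5.46 on the 3 M2a arrays, so that M2a array 3 stood over 5 log2 units from the other two. On the same 3 arrays its other probe set read 5.99, 5.71 and 5.43. The difference from M0 was -1.57 with all arrays (adjusted p = 0.24) and 0.18 without M2a array 3 (adjusted p = 0.68). Il24, a relative of IL-10, fell by 0.59 in M1 (limma adjusted p = 0.0014), a call lost with the hybridization covariate (-0.29, adjusted p = 0.26), and Il20rb, a receptor chain for the IL-20 subfamily, rose by 2.67 ± 0.11 (SE) in M2a (limma adjusted p = 2e-08). Cd4, the receptor of IL-16, passed in neither comparison with M0. Cd9, another surface protein linked to IL-16 binding, fell by 3.30 in M1 (SE 0.19, limma adjusted p = 1.6e-07) and did not pass in M2a.

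**Figure D4:**
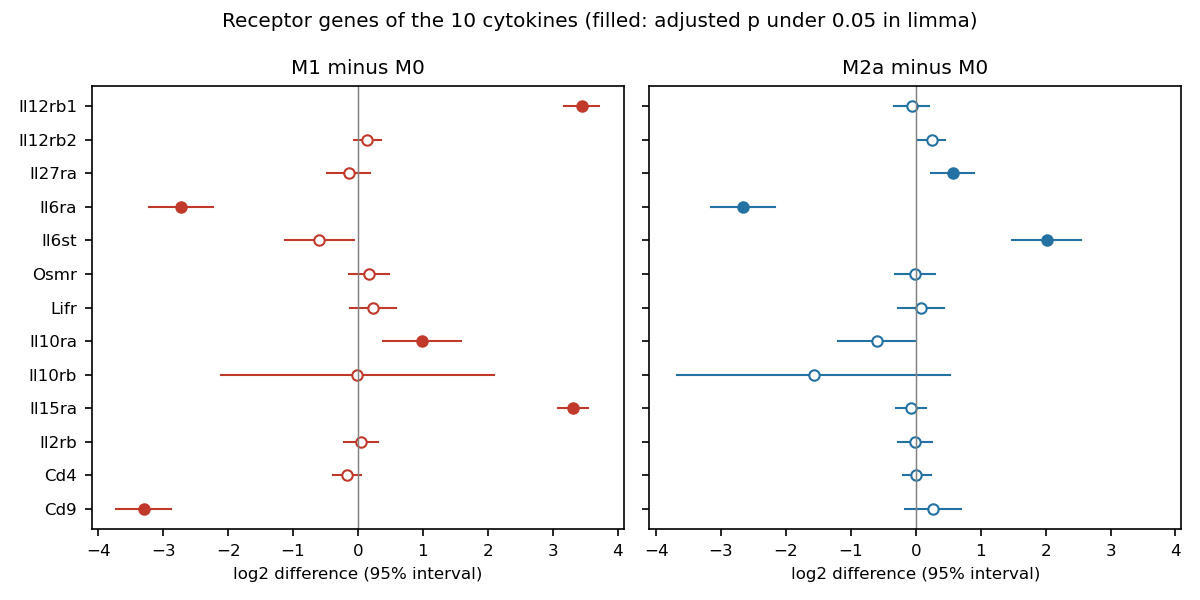
Log2 differences (points) with 95% intervals (lines) of 13 receptor genes of these cytokines in M1 against M0 and in M2a against M0; filled points have an adjusted p under 0.05 in limma. Il12rb1 and Il15ra are filled far to the right in M1 alone, Il6ra is filled to the left in both, and the wide interval of Il10rb comes with 1 M2a array at 5.46.

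Downstream, 5 of 9 JAK-STAT genes rose and 2 fell in M1, and 1 rose and 2 fell in M2a. Jak2, a kinase bound to many of these receptors, rose by 1.88 ± 0.16 (SE) in M1 (limma adjusted p = 2.7e-06) and Jak3 by 0.90. Stat4, the transcription factor through which IL-12 acts, fell by 1.89 in M1 (SE 0.17, limma adjusted p = 5.7e-06) and fell by 1.85 in M2a (SE 0.17, limma adjusted p = 1.1e-05). In M2a Jak3 rose by 0.40, a call lost with the hybridization covariate (adjusted p = 0.064). Stat5b fell by 0.61 in M2a (limma adjusted p = 0.00056), and its difference was -0.31 with the mean of its probe sets. In M1 its difference of -0.34 (limma adjusted p = 0.014) lost its call in 5 of 25 alternatives, among them without M1 array 2 (-0.29, adjusted p = 0.078).

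Of 9 feedback and target genes, 5 rose and 1 fell in M1, and 4 rose and 2 fell in M2a. Socs3, which limits IL-6 signalling, was at 6.43 ± 0.56 (SD, n = 5) in M0, 11.53 ± 0.10 (SD, n = 3) in M1 and 5.23 ± 0.23 (SD, n = 3) in M2a. It rose by 5.10 ± 0.27 (SE) in M1 (limma adjusted p = 5.8e-08) and fell by 1.20 in M2a (SE 0.27, limma adjusted p = 0.0050). Socs1, which limits interferon signalling, rose by 5.33 ± 0.21 (SE) in M1 (limma adjusted p = 5.4e-09) and by 1.06 in M2a (limma adjusted p = 0.0024). With the hybridization covariate the M2a calls of Socs3 (-1.24, adjusted p = 0.069) and Socs1 (0.21, adjusted p = 0.54) were lost. Socs2 fell by 3.57 in M1, and its difference was -1.39 with the mean of its probe sets. Cish, a STAT5 and STAT6 target, rose by 0.92 in M2a (limma adjusted p = 0.00044). Bcl3, an atypical NF-kB inhibitor, rose by 1.87 in M1 (limma adjusted p = 9.4e-08) and fell by 0.77 in M2a (limma adjusted p = 0.00018).

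Among 18 regulators of cytokine transcription, mRNA decay and processing, 10 rose and none fell in M1, while 4 rose and 6 fell in M2a. Irf1, which activates Il12 genes, rose by 2.93 ± 0.09 (SE) in M1 (limma adjusted p = 6.7e-10). Batf rose by 1.80 in M1, or by 1.17 with the actin covariate. Nfkbiz, a nuclear cofactor required for Il6 and Il12b induction, was at 8.13 ± 0.26 (SD, n = 5) in M0 and 5.30 ± 0.23 (SD, n = 3) in M2a. This was a difference of -2.83 (SE 0.16, limma adjusted p = 2.6e-07). Its difference of -0.19 in M1 against M0 did not pass (limma adjusted p = 0.39). Maf, an activator of Il10, fell by 3.94 in M2a (SE 0.24, limma adjusted p = 3.8e-07) and did not pass in M1, where Il10 rose. Bhlhe40, a repressor of Il10, rose by 2.24 ± 0.14 (SE) in M2a (limma adjusted p = 4.7e-07). Atf3, which restrains Il6 and Il12b, rose by 2.17 in M2a (limma adjusted p = 0.00024), or by 0.65 with the hybridization covariate, where its call was lost (adjusted p = 0.064).

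Genes with the profile most like that of a member were ranked by the root mean square difference of mean-centred log2 values over the 11 arrays, which share 3 groups and are not independent. For Il6 the nearest was Cd69, an early activation marker, at 0.21 log2 units. Cd69 stood at 4.01 in M0, 7.57 in M1 and 2.87 in M2a. For Il10 they were Gpr15 and the tumour necrosis factor gene Tnf, both at 0.20. For Il12b they were Lrrc4 (0.12) and Ciita (0.14), the master activator of MHC class II genes, and for Il12a Tap2 (0.18), a peptide transporter of MHC class I loading. For Ebi3 the nearest was Lst1 (0.25), which fell by 3.98 in M2a, followed by the integrin gene Itgal (0.29). For Il16 they were Mirt1 (0.22), Lbr (0.24) and Pclaf (0.25), a replication-associated gene, each lower by more than 3 log2 units in both treated states. For Il15 the nearest was Cibar1 (0.12). Il23a, Lif and Osm have group means that span less than 1 log2 unit and were not ranked.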

How the data were processed

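For each of 11 arrays the authors deposited a log2 value per probe set, 45101 in all. Per the submitters' processing notes Partek was used. How background was corrected and how probes were summarized and normalized is not given in the sources used here. Values ran from 0.73 to 14.49, and array medians from 5.14 to 5.34. The number of arrays limits the precision.

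A platform table named the probe sets. Current symbols were taken by Entrez identifier for 34741 probe sets, and 932 with several symbols were left out. Of the probe sets of each of 18193 genes, the one highest on average was used. Differences between group means were tested over all 11 arrays by lmFit and eBayes (limma 3.58.1, R 4.3.3), with Benjamini-Hochberg adjustment over all genes and a threshold of 0.05. SE and 95% intervals come from that fit, which counts the M0 arrays as independent. It was tested on simulated data whose arrays were all independent. That test therefore cannot vouch for SE, intervals or p-values against M0. Genes of the 7 lists were named by a rule: per list and comparison with M0, up to 2 largest rises and 2 largest falls that passed without overlap between the arrays, plus the 3 genes of closest profile to each member and the receptors of the members. The 10 genes, the lists, the rule and the tests were chosen with earlier results of these data known. Alternatives were other probe-set choices, normalizations, filters, variance models, subsets of arrays, a replicate block and control-probe covariates; adjustment over all named probe sets was added after the data were seen. Promoter letters come from RefSeq, build GRCm38.p6.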

Additional observations from a re-analysis of the deposited data

How the results depend on the processing

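In M1 against M0, 6 of the 10 genes kept their direction and their side of the threshold under every alternative that measured them; 4 did in M2a against M0 and 5 in M1 against M2a. Leaving out 1 array at a time gave 8 to 9, 5 to 6 and 5 to 5 called genes of the 10, and 5391 to 8457, 4161 to 6829 and 3927 to 6192 called over all genes. With genes above the median gene only, 4 of the 10 remained to be tested: Ebi3, Il15, Il16 and Osm. Il6, Il10, Il12a, Il12b, Il23a and Lif were not above it. Of the 4 that remained, 4 were called in M1 against M0 and 1 in M1 against M2a. Of the 9096 genes tested there, 4625 were called in M1 against M0 and 3798 in M1 against M2a. With M0 arrays 4 and 5 only, which leaves the differences as they were, 4758 genes were called in M1 against M0 and 3801 in M2a against M0. M1 against M2a gave 9 of the 10 and 10357 genes with only the 2 groups in the fit, and 10384 genes with array weights per group. It gave 8103 genes with the hybridization covariate, and 8 of the 10 beside 7010 of all 18193 genes with the actin covariate. The cause was not tested.

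Signs turned as follows, and the cause was not tested. With the hybridization covariate, Il23a (0.34), Il11 (0.07) and Il10ra (-0.51) turned in M1 against M0, and Il12a (0.32) in M2a against M0. With the actin covariate, Il23a turned in M1 against M0 (0.28) and in M1 against M2a (0.26), and Il15 in M1 against M2a (-0.70). Il23a was 0.04 in M1 with quantile normalization, and Il10rb was 0.33 with the mean of its probe sets and 0.04 with array medians subtracted. Without 1 array, Il10rb ran from -0.15 to 0.12 in M1 against M0 and from -2.46 to 0.18 in M2a against M0, and Il23a from -0.08 to 0.09 in M2a against M0.

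Whether equal replicate numbers pair arrays across groups was not settled. Same-numbered arrays of M0 and M1 had deviations correlated at 0.25, 0.04 and 0.17. The correlations ran from -0.04 to 0.01 for M0 and M2a and from 0.01 to 0.04 for M1 and M2a. With so few arrays such values cannot exclude a pairing. With the replicate block 9, 6 and 5 of the 10 genes were called. Over all genes 8023, 6492 and 6963 were called, in place of 7217, 5804 and 5341. Without a detection call, differences at the lowest values may lie below what the array can measure.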
